A study of Mus musculus with 15 samples.

Results

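The genes for the NF-kB subunits and for the inhibitors that NF-kB induces against itself were followed in RAW 264.7 cells, an Abelson virus-transformed mouse macrophage line, after 6 h of loading with silica nanoparticles. The set holds 10 of the 57186 genes in the count table and was chosen by name, as the rows of Nfkb1, Nfkb2, Rel and Relb (DNA-binding subunits), Nfkbia, Nfkbie, Nfkbiz and Bcl3 (proteins of the IkB family) and Tnfaip3 and Tnip1 (a ubiquitin-editing enzyme and its binding partner). The choice was made with earlier results of these data known. The 5 groups, each of 3 libraries, were nontreated controls, cells given SNP100 (larger nonporous particles, 50 µg/mL), cells given SNP50 (smaller nonporous particles, 25 µg/mL), cells given MSNP (mesoporous particles, 200 µg/mL) and cells given HMSNP (hollow mesoporous particles, 200 µg/mL). All groups were the same line, grown in RPMI with serum, and the labels name no added stimulus such as lipopolysaccharide. Particle type and dose changed together except between MSNP and HMSNP, so these were the only particles compared with each other, and each particle was otherwise compared with the nontreated controls. The labels do not say whether replicates came from separate cultures, so p-values measure the spread between libraries. That spread, and with it each standard error, was estimated for each gene over all 15 libraries together, not only those compared. Each group's titles carry a number prefix of its own, which the labels do not explain, so the group and whatever the prefix marks cannot be told apart.

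NF-kB transcription factors are dimers of Rel-family proteins that wait in the cytoplasm of resting macrophages, held there by IkB proteins. Receptor signals activate the IkB kinases, the inhibitor is degraded, and the dimers enter the nucleus and bind kappaB sites. Among the genes they switch on are those of their own precursors and brakes: Nfkbia encodes IkB-alpha, which pulls dimers out of the nucleus, Nfkbie encodes IkB-epsilon, and Tnfaip3 encodes A20, which removes ubiquitin chains from the signaling complexes with the help of Tnip1. Bcl3 and Nfkbiz encode nuclear members of the IkB family that shape which targets respond. Nfkb2 and Relb belong to the noncanonical route, in which the kinase encoded by Map3k14 triggers processing of the Nfkb2 precursor and release of its dimer with Relb.

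Promoter sequence was examined because these genes are known NF-kB targets. RefSeq promoter windows, 250 bases before to 50 bases after a transcript start, were held for 7 of the 10 genes, and Nfkb1, Relb and Nfkbiz had no entry. A match to the consensus kappaB motif, searched on both strands, lay in a window of all 7 of these genes and in 9 of their 10 windows, whereas 4.51% of the 32851 windows in the table and 5.14% of its 27025 genes had one. The windows came from a RefSeq table of build GRCm38.p6 and were located in GRCm39 by exact match, which gave the positions below. For 6 genes the 150 bases before the start are printed 5′ to 3′ on the gene's strand, and for Bcl3, whose match began after the start, 30 bases around it. Capitals mark the motif matches, overlapping matches being merged.
Nfkb2 (chr19:46293026-46293175, plus strand): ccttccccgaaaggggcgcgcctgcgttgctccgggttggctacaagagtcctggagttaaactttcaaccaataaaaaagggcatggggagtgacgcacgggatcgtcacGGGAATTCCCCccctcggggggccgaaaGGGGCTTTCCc
Rel (chr11:23720970-23721119, minus strand): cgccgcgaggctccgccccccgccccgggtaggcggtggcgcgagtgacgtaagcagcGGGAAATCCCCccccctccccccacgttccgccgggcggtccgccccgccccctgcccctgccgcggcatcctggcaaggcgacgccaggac
Nfkbia (chr12:55539433-55539582, minus strand): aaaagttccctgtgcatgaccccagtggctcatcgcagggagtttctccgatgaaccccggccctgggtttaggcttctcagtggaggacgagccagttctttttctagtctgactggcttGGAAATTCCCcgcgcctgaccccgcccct
Nfkbie (chr17:45866476-45866625, plus strand): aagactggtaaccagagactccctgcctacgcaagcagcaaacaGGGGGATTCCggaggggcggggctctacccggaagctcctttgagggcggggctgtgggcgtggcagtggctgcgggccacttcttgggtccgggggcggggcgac
Bcl3 (chr7:19556659-19556688, minus strand): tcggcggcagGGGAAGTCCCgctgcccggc
Tnfaip3 (chr10:18891159-18891308, minus strand): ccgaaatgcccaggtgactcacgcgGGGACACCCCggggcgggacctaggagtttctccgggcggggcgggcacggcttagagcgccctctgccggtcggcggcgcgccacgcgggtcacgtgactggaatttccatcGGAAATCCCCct
Tnip1 (chr11:54853767-54853916, minus strand): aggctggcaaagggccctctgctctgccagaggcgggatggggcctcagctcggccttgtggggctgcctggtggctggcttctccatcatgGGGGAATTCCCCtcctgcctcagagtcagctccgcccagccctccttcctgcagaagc
Nfkb2 had a match that ended 2 bases before its start, Tnfaip3 one within 12 bases before, and the Bcl3 match began at base 3 of the transcript. Tnip1 carried a palindromic match of 12 bases, and the second window of Tnfaip3 was the one with matches. A match describes letters and does not show binding in these cells. Relb and Bcl3 lie 178 kb apart on chromosome 7.

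All 10 genes passed the filter of at least 10 counts summed over the libraries. Libraries held 29369934 to 42617812 counts, and the lowest count of a member in any library was 169, for Nfkbiz. All 10 macrophage markers had a mean of at least 1 CPM (counts per 1000000 after TMM scaling) in every group, with a summed level of 16113 to 20393 CPM in the controls and 13475 to 14431 CPM in the MSNP libraries and 15799 to 16988 CPM in the HMSNP libraries, and the 4 epithelial markers summed to at most 0.0296 CPM in any library. In bulk RNA, fewer expressing cells and less RNA per cell cannot be told apart. Markers of fibroblasts, endothelial, T and B cells each stayed below a group mean of 1 CPM, and 3 of 5 osteoclast markers exceeded it in every group, their sum running from 47.7 to 61.9 CPM in the controls from 52.1 to 57.3 CPM after MSNP and from 42.0 to 45.3 CPM after HMSNP, below every control and MSNP library. Between HMSNP and MSNP, 1 of the 4 osteoclast markers tested was higher and 1 lower, and 3 of the 10 macrophage markers were higher and 2 lower, and their part in the results was not tested. The controls differed from each other far more than the treated libraries did, with a mean chi-square per gene (near 1 if libraries differed by counting error only) of 66.2 to 205 between control libraries and of at most 13.9 between treated libraries of a group. Control replicate 3 had long transcripts under-represented, with a median log2 difference from its group of 0.70 in the shortest 10% of 10652 genes and of −0.86 in the longest 10%, and control replicate 2 leaned the other way, at −0.43 and 0.63.

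This length trend reached the genes studied here, whose canonical transcripts (GENCODE vM39) run from 1578 bases (Nfkbia) to 7760 bases (Rel). In control replicate 3, Nfkbia lay 0.64 above the mean log2 CPM of the other controls, whereas Rel lay 0.79 below and Tnfaip3 0.59 below. Nfkb2 was an exception, since it lay only 0.026 below although its canonical transcript is annotated at 6754 bases. Its annotated coding transcripts run from 3846 to 7059 bases, and which of them these cells express was not tested. The levels per kilobase and the length offset below use the canonical length. Where a gene of this set passed against the controls, its value without control replicate 3 is therefore also given. So is its value with each library's length trend removed by an offset. For the other pathway genes named below these values are not given. The part of the trend in any result beyond those values was not tested.

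**Figure D1:**
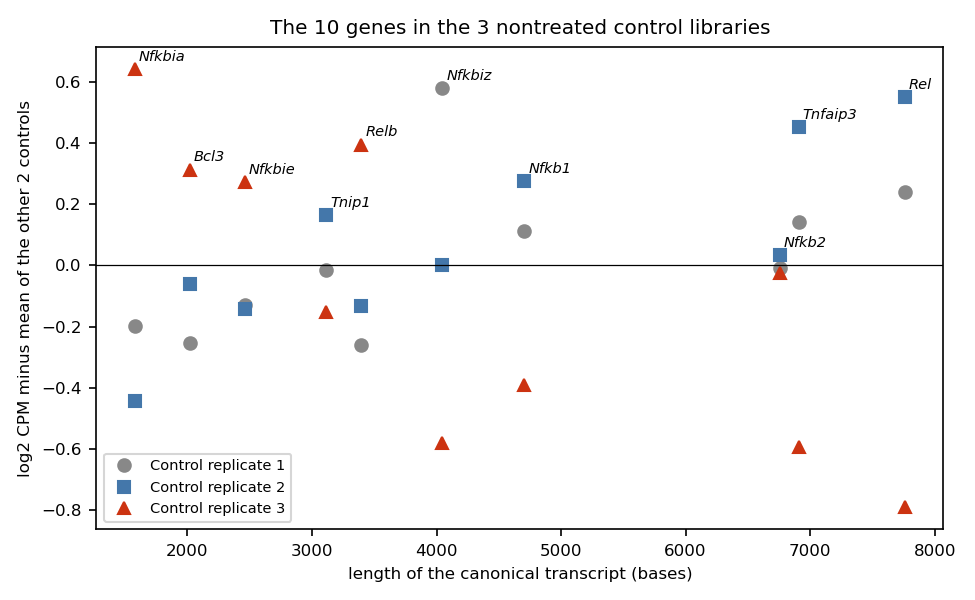
Each point is 1 of the 10 genes in 1 control library. The horizontal axis is the length of the canonical transcript in bases and the vertical axis the log2 CPM minus the mean of the other 2 controls. Control replicate 3 (triangles) runs from 0.64 for the short Nfkbia to −0.79 for the long Rel.

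The 10 genes covered a wide range of levels. Per kilobase of canonical transcript, the mean in the controls was highest for Nfkbia, at 65.6 CPM per kb, followed by Tnip1 at 38.7 and Nfkb1 at 30.6 CPM per kb. The remaining genes ranged from 6.19 CPM per kb for Nfkb2 to 1.21 CPM per kb for Tnfaip3, which was the lowest member in the controls. In the MSNP group the lowest member was instead Nfkbiz, at 1.66 CPM per kb, with Tnfaip3 at 2.79. The median coefficient of variation over the 10 genes was 16.0% in the controls, 8.04% in the SNP100 group, 6.16% in the SNP50 group, 2.91% in the MSNP group and 3.05% in the HMSNP group.

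Across the 5 groups, HMSNP was the group with the highest mean for 7 genes, as for 20.8% of all genes tested, and MSNP the group with the lowest mean for 7, as for 30.6%. The 7 genes highest after HMSNP were the 4 subunits Nfkb1, Nfkb2, Rel and Relb together with Nfkbia, Nfkbie and Bcl3, and in each the lowest HMSNP library lay above the highest library of the next group in order, as for 6.09% of all genes. For 5 of them the HMSNP libraries lay above all other libraries (3.82% of all genes). The exceptions were Nfkbia, for which control replicate 3 lay above the HMSNP libraries, and Rel, for which control replicate 2 lay among them. Nfkbiz was lowest after MSNP and next lowest after HMSNP, without overlap between neighbours from the controls downwards. Tnfaip3 was ordered differently, with MSNP highest, HMSNP next and SNP100 after it, none of these overlapping its neighbour. Tnip1 differed least, its group means spanning 0.15 on the log2 scale against 1.45 for Nfkbiz, 1.22 for Tnfaip3 and 1.09 for Bcl3, and all neighbouring groups overlapped. These orders describe the levels and carry no test.

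**Figure D2:**
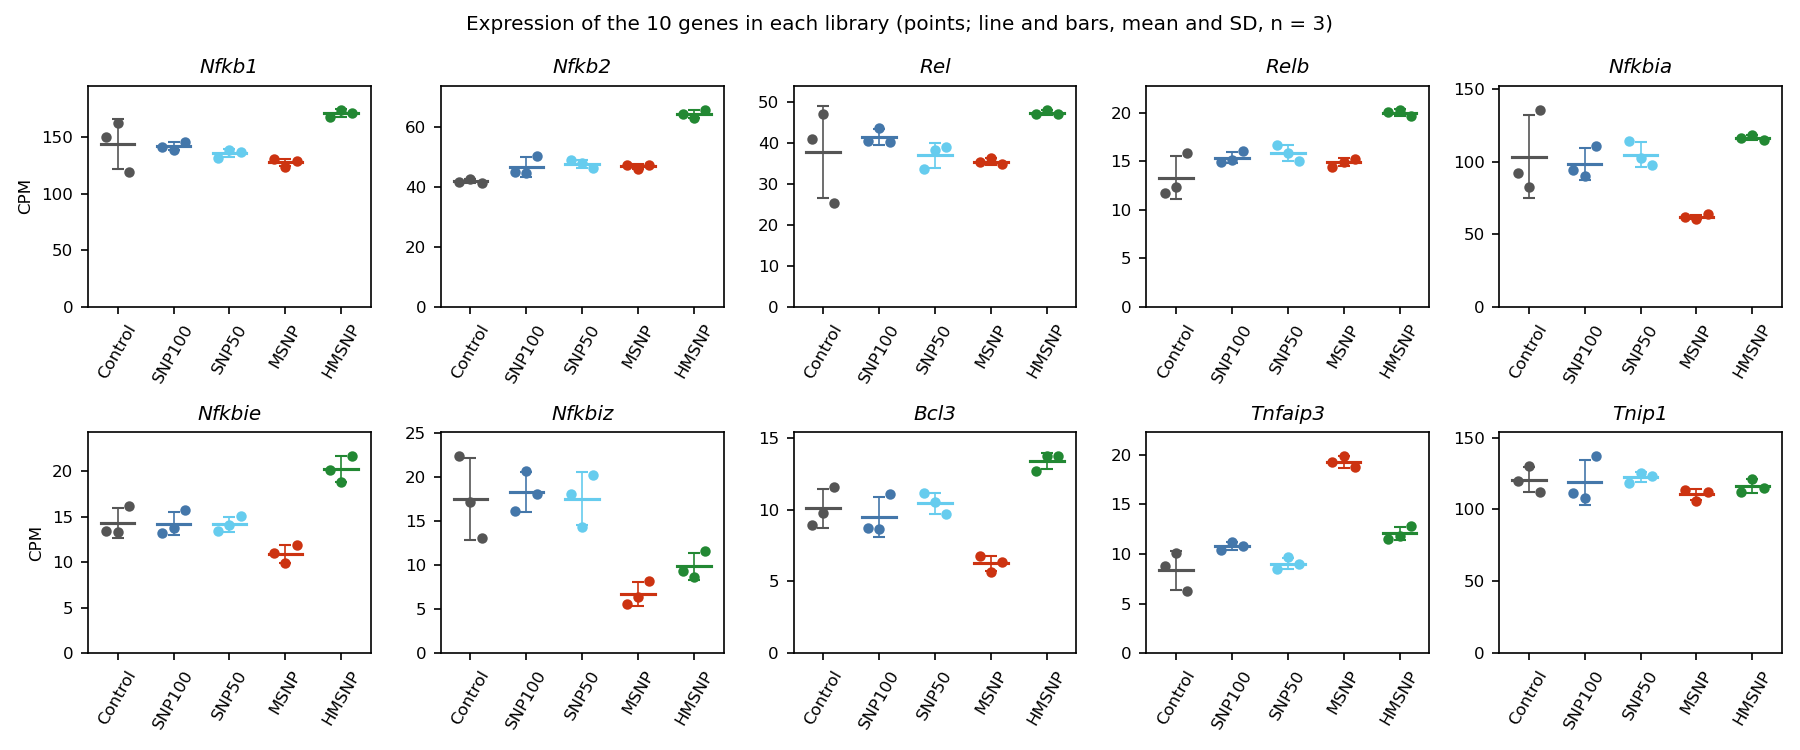
One panel per gene, with CPM on the vertical axis from 0 and the 5 groups on the horizontal axis. Points are libraries, horizontal lines are group means and bars are 1 SD (n = 3). The HMSNP mean is the highest in 7 panels, although for Nfkbia control replicate 3 lies above all HMSNP points and for Rel control replicate 2 lies among them, and Tnfaip3 alone is highest after MSNP.

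MSNP and HMSNP were given at the same dose for the same time, and the largest number of the 10 genes differed between them. In edgeR (quasi-likelihood F-test, p adjusted by Benjamini-Hochberg over all genes tested), 6 were higher after HMSNP (Nfkb1, Nfkb2, Relb, Nfkbia, Nfkbie and Bcl3) and 1 was lower (Tnfaip3), while Rel, Nfkbiz and Tnip1 did not pass. Over all 19839 genes tested, 20.2% passed in this comparison, 9.22% higher and 11% lower. With a stricter filter on low counts (filterByExpr, 14284 genes tested) 28.7% passed, and the same genes of the set were called. For 9 of the 10 genes the libraries of the groups did not overlap, as for 45.3% of all genes. The median log2 fold change was 0.44 over the 10 genes and 0.0036 over all genes tested.

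Among the subunits, Nfkb1, which encodes the precursor of the most common partner of Rela, measured 131, 124 and 129 CPM in the MSNP libraries and 168, 175 and 172 CPM in the HMSNP libraries. All 3 HMSNP libraries were above all MSNP libraries, and the log2 difference was 0.42 ± 0.088 (SE), with an adjusted p of 0.00238. Nfkb2 measured 47.2, 45.9 and 47.1 CPM after MSNP and 64.1, 63.0 and 65.6 CPM after HMSNP, again without overlap. Its log2 difference was 0.46 ± 0.062, with an adjusted p of 5.1e-05. Relb, the dimer partner of the Nfkb2 product, measured 14.4, 14.98 and 15.3 CPM and 20.1, 20.3 and 19.6 CPM, so that it too was separated, by 0.43 ± 0.096 on the log2 scale with an adjusted p of 0.00444. Rel, the subunit that drives many lymphoid and cytokine genes, measured 35.3, 36.3 and 34.8 CPM and 47.1, 48.1 and 47.0 CPM. The libraries of Rel did not overlap and the fitted difference of 0.42 ± 0.15 was close to that of the other subunits, but its adjusted p was 0.0709 and its 95% interval 0.091 to 0.75. With only the 6 libraries of the comparison in the model, which leaves out the variable controls, Rel passed at 0.43 with an adjusted p of 3.5e-06. In that setting 40.9% of all genes passed.

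The IkB family genes Nfkbia, Nfkbie and Bcl3 were also higher after HMSNP, and Nfkbiz did not pass. Nfkbia measured 61.9, 60.6 and 63.7 CPM after MSNP and 116, 118 and 115 CPM after HMSNP, a log2 difference of 0.91 ± 0.14 with an adjusted p of 2.2e-04. Nfkbie, whose product retains Rel and Rela dimers in the cytoplasm, measured 11.0, 9.88 and 11.9 CPM and 20.1, 18.8 and 21.6 CPM, a difference of 0.89 ± 0.10 with an adjusted p of 1.1e-05. Bcl3, a nuclear partner of Nfkb1 and Nfkb2 homodimers, had the largest difference of the 10 genes. It measured 6.74, 5.67 and 6.34 CPM after MSNP and 12.7, 13.7 and 13.7 CPM after HMSNP, which is 2.14 times as much, with a log2 difference of 1.10 ± 0.12 and an adjusted p of 6.3e-06. Nfkbiz measured 5.59, 6.40 and 8.21 CPM and 9.40, 8.70 and 11.6 CPM, without overlap but with an adjusted p of 0.0684 for a difference of 0.56 ± 0.20 and a 95% interval of 0.12 to 0.99. Nfkbiz passed in 7 of the 23 alternative analyses, so its call depended on the setting.

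The ubiquitin-editing pair behaved differently from the IkB genes. Tnfaip3 measured 19.2, 19.9 and 18.7 CPM after MSNP and 11.5, 11.8 and 12.9 CPM after HMSNP, lower in all 3 HMSNP libraries, with a log2 difference of −0.67 ± 0.13 and an adjusted p of 0.00102. Tnip1 measured 113, 106 and 112 CPM and 112, 121 and 115 CPM, with overlap between the groups. Its difference was 0.074 ± 0.086, with a 95% interval of −0.11 to 0.26 and an adjusted p of 0.651. The 7 calls of this comparison held in each of the 23 alternative analyses, among them those without any 1 library.

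MSNP against the nontreated controls gave the widest changes in single genes. Tnfaip3 rose, and Nfkbia, Nfkbie, Nfkbiz and Bcl3 fell, so that 5 of the 10 genes passed, against 22.8% of all genes tested (11.8% higher and 11% lower). None of the 4 subunits passed, with 1 of them (Nfkb2) at an unadjusted p under 0.05 and called by DESeq2. With filterByExpr, where 33.1% of the genes tested passed, Nfkb2 was called too. In the same comparison 2 of the 10 macrophage markers rose and 5 fell, and their part in these results was not tested. For 6 of the 10 genes the libraries of the groups did not overlap, as for 33.2% of all genes. The median log2 fold change was −0.15 over the 10 genes and −0.052 over all genes tested.

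Tnfaip3 measured 8.77, 10.1 and 6.25 CPM in the controls and 19.2, 19.9 and 18.7 CPM after MSNP. Every MSNP library was above every control, the level was 2.30 times that of the controls, and the log2 fold change was 1.20 ± 0.13 (SE) with an adjusted p of 4.5e-06. Without control replicate 3 the value was 1.04, and with the length offset 1.02, and it passed in both. Nfkbiz, which encodes IkB-zeta, a coactivator needed for a subset of inflammatory genes, measured 22.4, 17.1 and 13.1 CPM in the controls and 5.59, 6.40 and 8.21 CPM after MSNP. It was the gene with the largest fall, to 0.384 times the control level, with a log2 fold change of −1.38 ± 0.20 and an adjusted p of 1.0e-04. The value was −1.54 without control replicate 3 and −1.45 with the length offset, where it also passed.

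Nfkbia measured 92.2, 82.3 and 136 CPM in the controls, with replicate 3 the highest, and 61.9, 60.6 and 63.7 CPM after MSNP. All MSNP libraries were lower, with a log2 fold change of −0.74 ± 0.14 and an adjusted p of 0.00128. This fall shrank to −0.48 without control replicate 3, where it still passed with an adjusted p of 9.0e-05, and it was −0.59 with the length offset (adjusted p 7.5e-06). Bcl3 measured 8.92, 9.74 and 11.6 CPM in the controls and 6.74, 5.67 and 6.34 CPM after MSNP, a log2 fold change of −0.69 ± 0.12 with an adjusted p of 5.6e-04. It was −0.57 without control replicate 3 and −0.62 with the length offset, and passed in both. Nfkbie measured 13.4, 13.3 and 16.1 CPM in the controls and 11.0, 9.88 and 11.9 CPM after MSNP, and all MSNP libraries were lower. Its log2 fold change was −0.39 ± 0.10 with an adjusted p of 0.0122, but it did not pass without MSNP replicate 2 (−0.31, adjusted p 0.0743) or with only the 6 libraries of the comparison in the model (adjusted p 0.1). It passed at −0.29 without control replicate 3 and −0.37 with the length offset.

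The subunits and Tnip1 had small fitted differences in this comparison, −0.17 for Nfkb1, 0.16 for Nfkb2, −0.092 for Rel, 0.16 for Relb and −0.13 for Tnip1. Their calls depended on the setting. Without control replicate 3, 9 of the 10 genes passed, the added ones being Nfkb1 (fell by 0.28) and Rel (fell by 0.30), and Nfkb2 (0.16) and Relb (0.32), which were higher, against 29.5% of all genes. With the length offset and all controls kept, 7 of the 10 passed, against 28.6% of all genes, the added ones being Nfkb1 (−0.29) and Rel (−0.28), while Nfkb2 (−0.068), Relb (0.11) and Tnip1 (−0.16) did not pass. Only with the offset and without control replicate 3 did Tnip1 pass (adjusted p 0.0305), against 32.1% of all genes.

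HMSNP against the nontreated controls also moved 5 of the 10 genes. Nfkb2, Relb, Nfkbie and Tnfaip3 rose and Nfkbiz fell, against 5.16% of all genes tested (2.46% higher and 2.7% lower). With filterByExpr 8.97% of the genes tested passed, and Bcl3 was called too. For 7 of the 10 genes the libraries did not overlap, as for 22.9% of all genes. The median log2 fold change over the 10 genes was 0.37 and that over all genes tested −0.038. This comparison and the previous one share the control libraries, so their values are given side by side and are not independent.

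Among the subunits, Nfkb2 and Relb passed, and no test compared their changes with those of Nfkb1 and Rel. Nfkb2 measured 41.6, 42.4 and 41.3 CPM in the controls and 64.1, 63.0 and 65.6 CPM after HMSNP, 1.54 times the control level, with a log2 fold change of 0.62 ± 0.062 (SE) and an adjusted p of 2.6e-05. This value was 0.61 without control replicate 3, 0.34 with the length offset (adjusted p 0.0849) and 0.56 with the offset and without control replicate 3 (adjusted p 7.9e-06). Relb measured 11.7, 12.4 and 15.8 CPM in the controls and 20.1, 20.3 and 19.6 CPM after HMSNP, and every HMSNP library was above every control. Its log2 fold change was 0.59 ± 0.096 with an adjusted p of 0.00207, and it passed at 0.73 without control replicate 3 and 0.56 with the length offset. Nfkb1 and Rel did not pass, at 0.25 ± 0.088 (adjusted p 0.111) and 0.33 ± 0.15 (adjusted p 0.208). Both passed when control replicate 2 was left out, at 0.36 and 0.54, a setting in which 25.2% of all genes passed. Neither passed without control replicate 3, at 0.13 and 0.11, or with the length offset, at 0.14 and 0.066.

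Among the inhibitors, Nfkbie rose from 13.4, 13.3 and 16.1 CPM in the controls to 20.1, 18.8 and 21.6 CPM after HMSNP, a log2 fold change of 0.50 ± 0.10 with an adjusted p of 0.01. It passed at 0.59 without control replicate 3 and 0.56 with the length offset. Tnfaip3 rose from 8.77, 10.1 and 6.25 to 11.5, 11.8 and 12.9 CPM, a log2 fold change of 0.53 ± 0.13 with an adjusted p of 0.0287. This rise was smaller than that after MSNP, as the direct comparison of the particles showed. Nfkbiz fell from 22.4, 17.1 and 13.1 to 9.40, 8.70 and 11.6 CPM, a log2 fold change of −0.82 ± 0.19 with an adjusted p of 0.0247, and it passed at −0.99 without control replicate 3 and −0.88 with the length offset.

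Several of these calls were close to the threshold. Tnfaip3 did not pass without any 1 of the HMSNP libraries or without MSNP replicate 1 or 2, and it passed at the smaller values of 0.35 without control replicate 3 and 0.29 with the length offset. Nfkbiz did not pass without HMSNP replicate 1 or 2 or control replicate 1, and Nfkbie not without HMSNP replicate 3. Bcl3 missed the threshold at 0.41 ± 0.12 (adjusted p 0.0585) although its HMSNP libraries were all above the controls, and it passed in 9 of 23 alternative analyses, among them DESeq2 (0.42, adjusted p 0.00824), the fit without control replicate 3 (0.52) and that with the length offset (0.53). Nfkbia did not pass at 0.17 ± 0.14 (adjusted p 0.473), but did without control replicate 3 (0.42, adjusted p 0.00201) and with the length offset (0.37, adjusted p 0.00324). With only the 6 libraries of the comparison in the model, where all genes together gave 0.439% calls, Nfkb2 alone among the 10 passed.

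The nonporous particles moved none of the 10 genes past the threshold. After SNP100, 0 of 10 passed, against 0.912% of all genes tested, and 3 (Nfkb2, Relb and Tnfaip3) had an unadjusted p under 0.05 while DESeq2 also called 0. After SNP50, 0 of 10 passed, against 1.41% of all genes tested, and 2 (Nfkb2 and Relb) had an unadjusted p under 0.05 while DESeq2 called 1, Nfkb2. The libraries did not overlap with the controls for 2 of the 10 genes after SNP100 (12.5% of all genes) and for 1 after SNP50 (14.1%). The doses, 50 and 25 µg/mL, differ from each other and from that of the mesoporous particles, so the values are given side by side without a test between particles.

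Tnfaip3 measured 10.4, 11.2 and 10.8 CPM after SNP100 and 8.47, 9.67 and 8.99 CPM after SNP50. The SNP100 libraries all lay above the controls, with a log2 fold change of 0.37 ± 0.13 and a 95% interval of 0.092 to 0.65, and the SNP50 libraries overlapped them at 0.11 ± 0.13. Nfkb2 measured 44.9, 44.4 and 50.2 CPM after SNP100 and 49.0, 47.7 and 46.2 CPM after SNP50, all above the controls, with log2 fold changes of 0.15 ± 0.062 and 0.19 ± 0.062. The 95% interval for Nfkbia was −0.37 to 0.23 after SNP100 and −0.28 to 0.32 after SNP50, and that for Nfkbiz was −0.34 to 0.47 and −0.41 to 0.41. Without control replicate 3, 1 gene passed after SNP100 (Relb, 0.35) and 5 after SNP50, namely Relb (0.39), Nfkbia (0.26), Nfkb2 (0.18), Nfkb1 (fell by 0.21) and Rel (fell by 0.25), against 5.16% and 18.9% of all genes. Without control replicate 2, 1 gene passed after SNP100 (Tnfaip3, 0.53), against 1.65% of all genes, whereas Tnfaip3 was at 0.19 without control replicate 3 and 0.23 with the length offset and did not pass in either. With the length offset 0 of the 10 genes passed after SNP100 or SNP50, and Nfkb2 was at −0.023 and 0.098.

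**Figure D3:**
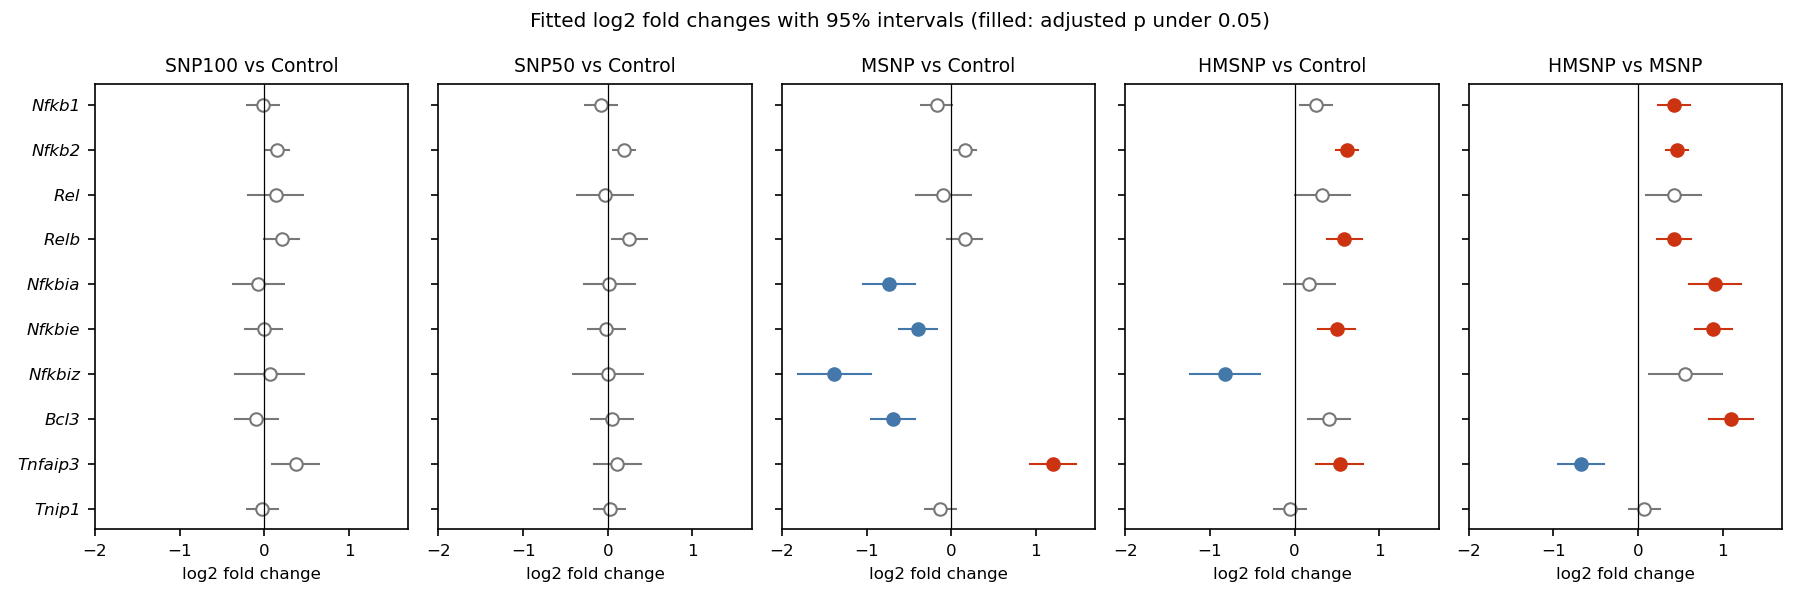
Fitted log2 fold changes (horizontal axis) of the 10 genes (rows) in the 5 comparisons (panels). Points are estimates, lines are 95% intervals, and filled points passed the adjusted p threshold of 0.05, red for higher and blue for lower. No point is filled for SNP100 or SNP50, and the comparison of HMSNP with MSNP has 7 filled points, 6 of them on the higher side.

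For the 3 members with the widest range of group means, the genes with the most similar pattern were sought among 11530 genes, by the root mean square difference of centred log2 CPM over the 15 libraries. Tnfaip3 was matched most closely by Cd180 (0.075), Nhlrc3 (0.084) and 5830432E09Rik (0.088). Bcl3 was nearest to Lpcat4 (0.113), Zfp36 (0.126) and Cd14 (0.126), of which Zfp36 encodes an mRNA-destabilising protein and Cd14 a co-receptor for lipopolysaccharide. Nfkbiz was nearest to Spaca6 (0.206), AW046200 (0.219) and Fosl2 (0.222), so its pattern was less closely matched.

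The other genes of the pathway are given as counts over whole lists, and the genes named from each list are those with the smallest p among the genes past the threshold, besides Rela. The counts stand against 22.8% of all genes for MSNP against the controls, 5.16% for HMSNP against the controls and 20.2% between the particles. With filterByExpr these shares were 33.1%, 8.97% and 28.7%. Of the 4 other family members, 0 passed after MSNP or after HMSNP against the controls by edgeR, with 1 (Nfkbib after MSNP) at an unadjusted p under 0.05 and none called by DESeq2, and 1, Nfkbib, was lower after HMSNP than after MSNP. Rela, the main transactivating subunit, measured 76.4, 76.5 and 88.4 CPM in the controls, 79.3, 78.0 and 75.7 CPM after MSNP and 76.6, 84.3 and 83.8 CPM after HMSNP, with a difference between the particles of 0.070 ± 0.073 and a 95% interval of −0.085 to 0.23. Of the 10 kinases, 1 fell after MSNP, 1 rose after HMSNP, and 2 were higher after HMSNP than after MSNP.

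Map3k14, the kinase that starts processing of the Nfkb2 product, was the kinase that fell after MSNP. It measured 26.9, 25.9 and 22.3 CPM in the controls, 11.5, 12.8 and 14.0 CPM after MSNP and 27.2, 25.7 and 28.1 CPM after HMSNP. The MSNP libraries were below all others, with a log2 fold change of −0.97 ± 0.087 against the controls (adjusted p 7.4e-07), and HMSNP lay 1.07 ± 0.087 above MSNP (adjusted p 2.4e-07). Ikbke, an IkB kinase-related enzyme of the interferon route, measured 11.8, 13.2 and 15.2 CPM after MSNP and 20.8, 18.3 and 25.3 CPM after HMSNP, a difference of 0.68 ± 0.16 with an adjusted p of 0.00474.

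Among 14 adaptors and ligases, 3 rose and 3 fell after MSNP, 2 rose and 0 fell after HMSNP, and 3 were higher and 1 lower after HMSNP than after MSNP. Birc3, a ligase that keeps Map3k14 protein low, measured 19.6, 18.3 and 18.3 CPM after MSNP and 33.3, 32.7 and 31.6 CPM after HMSNP and was higher after HMSNP by 0.80 ± 0.099 (adjusted p 2.2e-05). Myd88, the adaptor of most Toll-like receptors, fell after MSNP by 0.50 and was higher after HMSNP than after MSNP by 0.33. Irak2, a kinase downstream of Myd88, went the other way, with 0.65 after MSNP and −0.42 between HMSNP and MSNP.

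Among 13 other brakes on the pathway, 3 rose and 3 fell after MSNP, 2 rose and 0 fell after HMSNP, and 4 were higher and 2 lower after HMSNP than after MSNP. Tnip3, a relative of Tnip1 that also binds the Tnfaip3 product, measured 99.8, 102 and 110.0 CPM in the controls, 42.0, 37.9 and 40.7 CPM after MSNP and 132, 138 and 127 CPM after HMSNP. Its fall after MSNP was −1.37 ± 0.073 (adjusted p 2.0e-09), and its difference between HMSNP and MSNP was 1.72 ± 0.074 (adjusted p 2.9e-10). For Tnip1 neither comparison passed in the main model. Pdlim2, a nuclear ligase for Rela, fell by 1.18 after MSNP and was higher after HMSNP than after MSNP by 0.92. Sqstm1, an autophagy receptor and signaling scaffold, rose by 0.80 after MSNP and was lower after HMSNP than after MSNP, by −0.92.

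Of 25 inflammatory target genes 23 were tested, Il6 and Il12b having too few counts. After MSNP 9 rose and 5 fell, after HMSNP 5 rose and 1 fell, and between HMSNP and MSNP 6 were higher and 10 lower, so the targets did not all follow one direction. After SNP100 3 targets rose and 2 fell, against 0.912% of all genes, and after SNP50 1 rose and 3 fell, against 1.41%. Of the other lists only 1 kinase passed after the nonporous particles, lower after SNP50. Ccl3, a chemokine, measured 48.0, 46.0 and 71.6 CPM in the controls and 299, 281 and 289.8 CPM after MSNP, 5.25 times as much, with a log2 fold change of 2.39 ± 0.16. Cxcl10, an interferon-inducible chemokine, fell from 2.92, 2.75 and 3.70 CPM to 0.430, 0.378 and 0.534 CPM, a log2 fold change of −2.80 ± 0.20. Plau, which encodes urokinase, rose by 1.19 after MSNP. Ptgs2, the inducible cyclooxygenase, measured 11.2, 10.3 and 10.3 CPM after MSNP and 44.9, 57.0 and 47.1 CPM after HMSNP, a difference of 2.23 ± 0.16, whereas Gadd45b and Cd83 were lower after HMSNP than after MSNP, by −1.39 and −0.88.

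**Figure D4:**
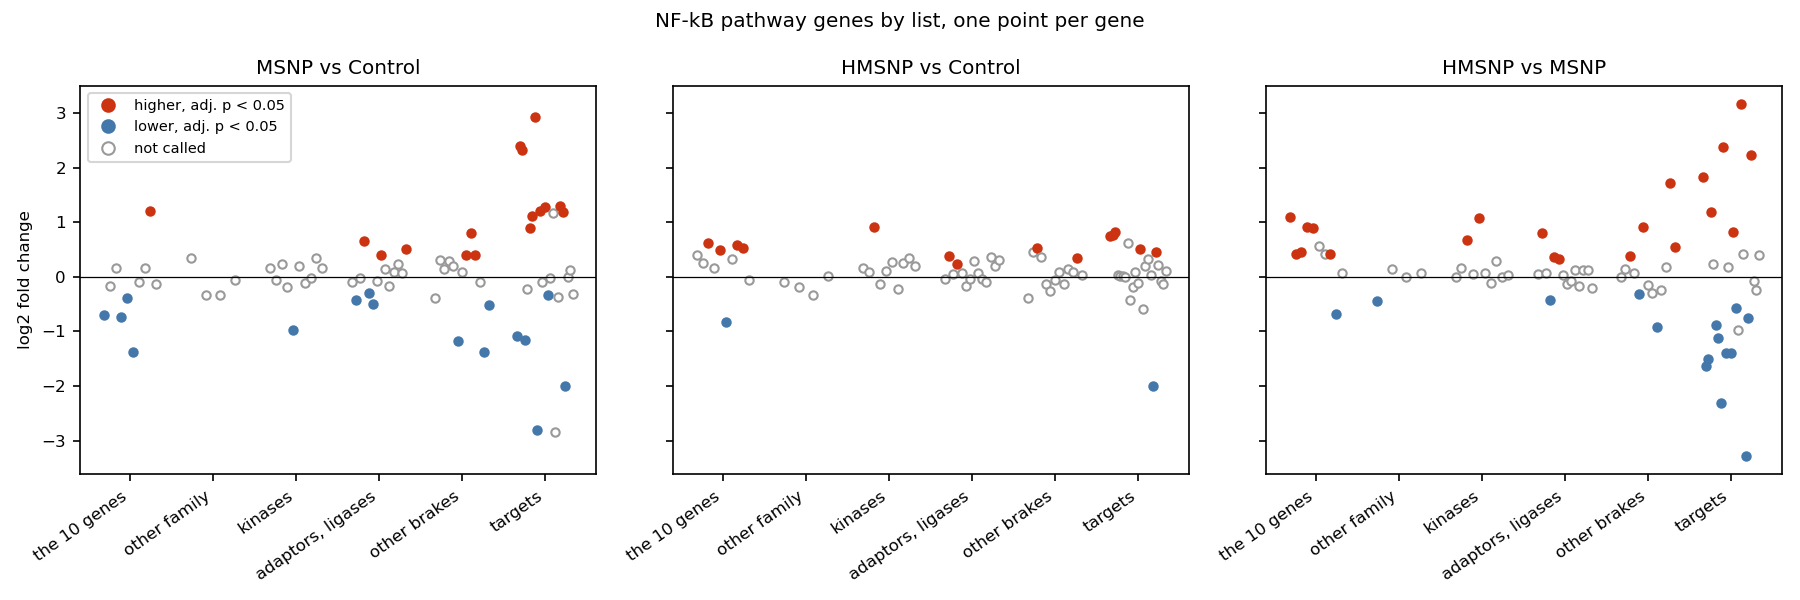
Each point is 1 gene, grouped by list on the horizontal axis, with its fitted log2 fold change on the vertical axis, for MSNP and HMSNP against the controls and for HMSNP against MSNP. Filled points passed the adjusted p threshold of 0.05 (red higher, blue lower). The inflammatory targets spread in both directions, and 6 of the 10 genes studied here are filled on the higher side in the right panel.

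Some counts may include reads of neighbouring transcripts. Nfkb2, Nfkbia, Bcl3 and Tnip1 share exon sequence with opposite-strand genes that have rows of their own in the table (Psd and 4833438C02Rik for Nfkb2, Gm36634 for Nfkbia, Gm16175 for Bcl3, Gpx3 for Tnip1), and Nfkb1 and Tnfaip3 with genes that do not. The libraries were directional, but the strand setting of the counting is not given in the sources used here, so reads from both strands in these stretches cannot be told apart.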

How the data were processed

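Per the labels and the submitters' processing notes, total RNA of RAW 264.7 cells was collected at 6 h, and STAR 2.7.9a, cutadapt 1.16, featureCounts 1.6.3 and build GRCm39 are named. The libraries were directional and made from poly(A) RNA. The authors deposited raw counts, 1 whole number for each of 57186 genes in each of 15 libraries, unnormalized, each replicate in a column of its own. The annotation release, the strand setting and whether reads or pairs were counted are not given in the sources used here. Gene identifiers were matched to GENCODE vM39 (56630 of 57186), and 30400 genes had no count in any library.

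The 19839 genes whose counts over all libraries added up to 10 or more entered the tests, run in R 4.3.3 with edgeR 4.0.16, by TMM normalization, 1 quasi-likelihood model of all 15 libraries without covariates, p-values adjusted by Benjamini-Hochberg and called below 0.05, in 5 comparisons. Genes passing it are described as higher, lower, risen or fallen. CPM are counts per 1000000 of the TMM-scaled library. Fold changes are on the log2 scale, ± is SE for fold changes, intervals are 95%. The script was tested on simulated counts. Alternatives were DESeq2 1.42.0, RLE normalization, other filters, fewer libraries, a replicate block and an offset for each library's trend with transcript length (lowess span 0.3). All 10 genes are described, and from each pathway list the genes with the 3 smallest p among those past the threshold, for MSNP against controls or HMSNP against MSNP. The members and lists were chosen with earlier results of these data known. Library totals ran from 29369934 to 42617812. For some members in some treated groups the spread between libraries was no larger than counting error would give.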

Additional observations from a re-analysis of the deposited data

How the results depend on the processing

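The numbers of the 10 genes past the threshold changed with the controls and, in the comparisons of MSNP or HMSNP, also with the treated libraries left out. The share of all genes that passed changed as well. Leaving out 1 library in turn gave 0 to 1 gene after SNP100, 0 to 5 after SNP50, 4 to 9 after MSNP and 3 to 8 after HMSNP, all against the controls, and 7 to 9 between HMSNP and MSNP. The upper ends came without control replicate 3 for SNP50 (5, against 18.9% of all genes) and MSNP (9, against 29.5%). For HMSNP the upper end (8, against 25.2%) came without control replicate 2. The 9 between HMSNP and MSNP came without control replicate 3, against 33.9%. The lowest value for MSNP (4) came without MSNP replicate 2, against 17.4%. The lowest value for HMSNP (3) came without each of its own libraries, against 2.51% to 2.93%. With the length offset and without control replicate 3 the numbers were 1 for SNP100, 3 for SNP50, 9 for MSNP and 7 for HMSNP. Between HMSNP and MSNP the number was 9. The shares of all genes there were 6.25%, 15.6%, 32.1%, 11.3% and 36.3%. DESeq2 called 1 for SNP50 (3.43% of all genes), and only the 6 libraries of the comparison left 1 for HMSNP (0.439%). The replicate block gave 0, 0, 5 and 5 against the controls and 7 between the particles, as without it. The shares of all genes with the block were 0.716%, 0.907%, 22.1%, 4.46% and 19.2%. Deviations of same-numbered libraries from their group means had correlations of −0.52 to 0.57 over 30 pairs, 10 of them above 0.1. For 8 of 15 libraries the closest library of another group bore their own number. These values do not settle whether the numbers pair the samples, and the main model did not use them as pairs. The cause of these shifts was not tested.

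Directions turned only for fold changes that had not passed. After SNP100 against the controls, Nfkbie (−0.0074) became 0.0017 with DESeq2, 0.0029 with RLE, 0.011 without a filter, 0.038 with the length offset and 0.073 with the offset and without control replicate 3. Under these 2 offset settings Rel became −0.015 and −0.035 and Nfkbia 0.043 and 0.11. Nfkb2 became −0.023 with the offset alone and Nfkbiz −0.089 without control replicate 3 as well. After SNP50, Nfkbiz (0.0014) became −0.00086 with DESeq2, −0.00012 with RLE, −0.0055 with filterByExpr, −0.0021 with 6 libraries, −0.0098 with the replicate block, −0.00092 with the length offset and −0.12 with the offset and without control replicate 3, a setting that also gave 0.031 for Nfkbie and −0.022 for Tnip1. After MSNP, Nfkb2 became −0.068 with the offset.

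Leaving out 1 library turned further values. After SNP100 the ranges were −0.14 to 0.077 for Nfkb1, −0.088 to 0.33 for Rel, −0.21 to 0.17 for Nfkbia, −0.084 to 0.087 for Nfkbie, −0.11 to 0.30 for Nfkbiz, −0.22 to 0.017 for Bcl3 and −0.14 to 0.040 for Tnip1. After SNP50 they were −0.21 to 0.012 for Nfkb1, −0.25 to 0.16 for Rel, −0.12 to 0.26 for Nfkbia, −0.068 to 0.078 for Nfkbie, −0.18 to 0.23 for Nfkbiz, −0.011 to 0.16 for Bcl3, −0.066 to 0.27 for Tnfaip3 and −0.032 to 0.078 for Tnip1. After MSNP the range was −0.30 to 0.10 for Rel, and after HMSNP −0.10 to 0.020 for Tnip1. The calls of Nfkbia, Nfkbiz, Bcl3 and Tnfaip3 after MSNP, and all 7 between HMSNP and MSNP, held in each of the 23 alternatives.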
